A study of Homo sapiens with 6 samples.

Results

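The genes described here are the retinoid receptors and 3 of their coregulators. They were taken by gene symbol from the expression tables and number 9 of the 53826 entries listed for each library. They comprise the retinoic acid receptor genes RARA, RARB and RARG, the retinoid X receptor genes RXRA, RXRB and RXRG, and the coregulator genes NCOR1, NRIP1 and NCOA1. Each symbol occurred once in each table. Of the 9 genes, 7 were above the floor of the data in all 6 libraries, whereas RARB and RXRG were at the floor in every library.

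Retinoic acid, the active form of vitamin A, acts on nuclear receptors that sit on DNA as pairs of a retinoic acid receptor (RAR) and a retinoid X receptor (RXR). Without ligand, the pair holds corepressors such as NCoR (NCOR1), whose complex carries a histone deacetylase. Binding of ligand exchanges it for coactivators of the p160 family, such as NCOA1, while NRIP1 (RIP140) binds ligand-occupied receptors and represses. RARβ is itself a textbook target of retinoic acid and is often silenced in cancer, and RARγ is the RAR best known from squamous epithelia and skin.

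RNA was sequenced from PK-1 and Panc-1, 2 established cell lines of human pancreatic ductal adenocarcinoma. Each line was kept as the control or exposed for 24 h to an inhibitor of RARγ, either RARγi-1 (LY2955303) or RARγi-2 (MM11253), which gave 6 libraries and 1 library per condition. The comparison of each treated library with the control of its line asks how the receptor genes themselves stood after RARγ was blocked. How much inhibitor was given for the RNA-seq, and what vehicle the control cultures received, is not stated in the sources used here, so the values of both inhibitors are set side by side without a comparison between them. The titles of both RARγi-2 libraries name that inhibitor, but their treatment entry reads RARγi-1. They were assigned by their titles, and every RARγi-2 value below rests on that.

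Levels are in TPM, transcript abundance scaled for transcript length and to the same total in every library, so that levels of different genes can be set against each other. Values under 1 TPM had been raised to 1 TPM, here called the floor. A log2 fold change is the log2 (TPM + 1) of a treated library minus that of its line's control, a scale that understates the change of low genes. With 1 library per condition there is no replicate error and no p-value within a line. In its place stands the fold change spread, the robust standard deviation (scaled median absolute deviation) of the difference that separates the treated libraries of a line from each other. For PK-1 it was 0.41 on the log2 scale and for Panc-1 0.32, taken over the entries that reached 5 TPM in 1 or more libraries of the line, called tested entries. Real differences between the inhibitors are part of it. Since TPM values keep no read number, depth and counting error are unknown.

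Between 13149 and 13652 entries per library were above the floor. All 6 epithelial markers (keratins, EPCAM and CDH1) were above the floor in PK-1. Panc-1 had 5 of them, with CDH1, the epithelial cadherin, at the floor. Their summed level ranged from 13507 to 22498 TPM across the PK-1 libraries and from 1484 to 8418 TPM across those of Panc-1, with the control library highest in both lines (22498, 13507 and 14127 TPM in the PK-1 control, RARγi-1 and RARγi-2 libraries, and 8418, 1783 and 1484 TPM in those of Panc-1). Of the 4 mesenchymal markers, PK-1 had 2 above the floor, with sums of 46.8, 94.4 and 142 TPM in the same order, and Panc-1 had 3, with sums of 6306, 4067 and 3975 TPM. The sum was thus higher than in the control in treated PK-1 and lower in treated Panc-1. VIM gave most of it in both lines. FN1 was lower in treated PK-1, at 5.15, 2.22 and 1.92 TPM. In Panc-1, ZEB1 was higher in the treated libraries, at 8.65, 14.5 and 10.9 TPM, and CDH2 was lower, as VIM was. Of the epithelial markers, CDH1 was higher in treated PK-1, at 170, 270 and 385 TPM, while the keratins and EPCAM were lower there. EPCAM in Panc-1 was at 13.4, 19.4 and 9.18 TPM. The 5 fibroblast, 3 islet and 3 endothelial markers were all at the floor, as were PTPRC and CD3E of the immune list. Of the other immune markers, CD68, a lysosomal protein also found outside the immune system, gave nearly the whole sum, which was 19.8, 95.0 and 62.6 TPM for PK-1 and 245, 276 and 238 TPM for Panc-1. Of the 4 acinar markers, PRSS1 alone was above the floor, at 1.06, 11.1 and 21.2 TPM in the PK-1 libraries. Both sums were higher in the treated PK-1 libraries than in the control. The part of these marker differences in the values of the receptor genes was not tested.

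RARs and RXRs bind direct repeats of a hexamer, and the spacing between the repeats sets which pair binds. The RefSeq promoter windows of GRCh38.p14, each of 300 bases with 250 before and 50 after a transcript start, were searched on both strands for 2 half-sites in the same direction with 1, 2 or 5 bases between them, each half-site being A or G, then G, then G or T, then TCA. All 9 genes matched, with 21 windows in all. One of these 21 windows, at a start of RARB, held a repeat spaced by 5 bases, the kind best known for RAR and RXR pairs, and none held the other spacings. Among all 35116 windows, 0.0883% held the repeat spaced by 5, 0.131% that spaced by 1 and 0.0399% that spaced by 2. The RARB stretch is shown because its promoter is the textbook site of such an element in a gene that was at the floor in every library. It lies at chr3:25428195-25428241 on the plus strand, the repeat runs from 53 to 37 bases before the start, and capitals mark the half-sites.
RARB: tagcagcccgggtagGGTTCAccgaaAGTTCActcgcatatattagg
The 100 bases before the start of RARG, the only 1 of the 9 genes to pass 2-fold, are shown beside it, at chr12:53232210-53232309 on the minus strand. Capitals mark a GC box, GGGCGG, searched on both strands.
RARG: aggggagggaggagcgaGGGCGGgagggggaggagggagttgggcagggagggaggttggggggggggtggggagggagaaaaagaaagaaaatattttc
A GC box lay within the 100 bases before the start in 31.3% of all windows and in 12 of the 21 windows of the 9 genes. The RARG window is 68% G and C and the RARB window with the repeat 46.7%, against a median of 58.7% over all windows. A match of letters is a description and does not show that a receptor binds there.

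RARG (chr12:53210569-53232209, Entrez 5916), which encodes RARγ, the target of both inhibitors, had the largest fold change of the 9 genes with both inhibitors in Panc-1 and, of the 9, passed 2-fold alone. In PK-1 its level was 51.1 TPM in the control, 37.5 TPM under RARγi-1 and 23.5 TPM under RARγi-2. In Panc-1 it was 30.1, 8.83 and 3.27 TPM in the same order, which is kept wherever 3 levels of a line are given. Each treated library was below the control of its line, and the control levels of both lines were above 30 TPM. The level was 1.36 times lower than in the control with RARγi-1 and 2.17 times lower with RARγi-2 in PK-1, and 3.41 and 9.21 times lower in Panc-1. PK-1 gave log2 fold changes of -0.44 and -1.09, and Panc-1 of -1.66 and -2.86, where the first value is that of RARγi-1, as in all pairs that follow. All were outside the fold change spread, the first of them close to its edge. In bulk RNA a lower level from fewer expressing cells and one from less RNA per cell cannot be told apart.

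RARA (chr17:40309180-40357643, Entrez 5914) encodes RARα, the most widely expressed RAR. Its level was 33.6 TPM in the PK-1 control, 30.5 TPM under RARγi-1 and 18.7 TPM under RARγi-2. In Panc-1 it was 11.5, 8.20 and 7.28 TPM. Its log2 fold changes were -0.14 and -0.81 for PK-1, against -0.45 and -0.60 for Panc-1, all below 0 and none past 2-fold. The PK-1 RARγi-1 value was inside the fold change spread and the others were outside it. An antisense gene, RARA-AS1, overlaps 2270 bases of RARA in the GENCODE 29 annotation, and whether the counting used strand is not stated. RARA-AS1 was at 3.36, 4.21 and 9.33 TPM in the PK-1 libraries and between 1.32 and 2.93 TPM in the Panc-1 libraries.

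RARB (chr3:24829321-25597932, Entrez 5915), the retinoic acid inducible RAR, was at the floor in the control libraries of both lines, so that a lower level with an inhibitor could not have been seen. RXRG (chr1:165400922-165445126, Entrez 6258), the RXR best known from muscle and brain, was likewise listed at 1 TPM or less in all 6 libraries. No fold change can be given for either gene.

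**Figure D1:**
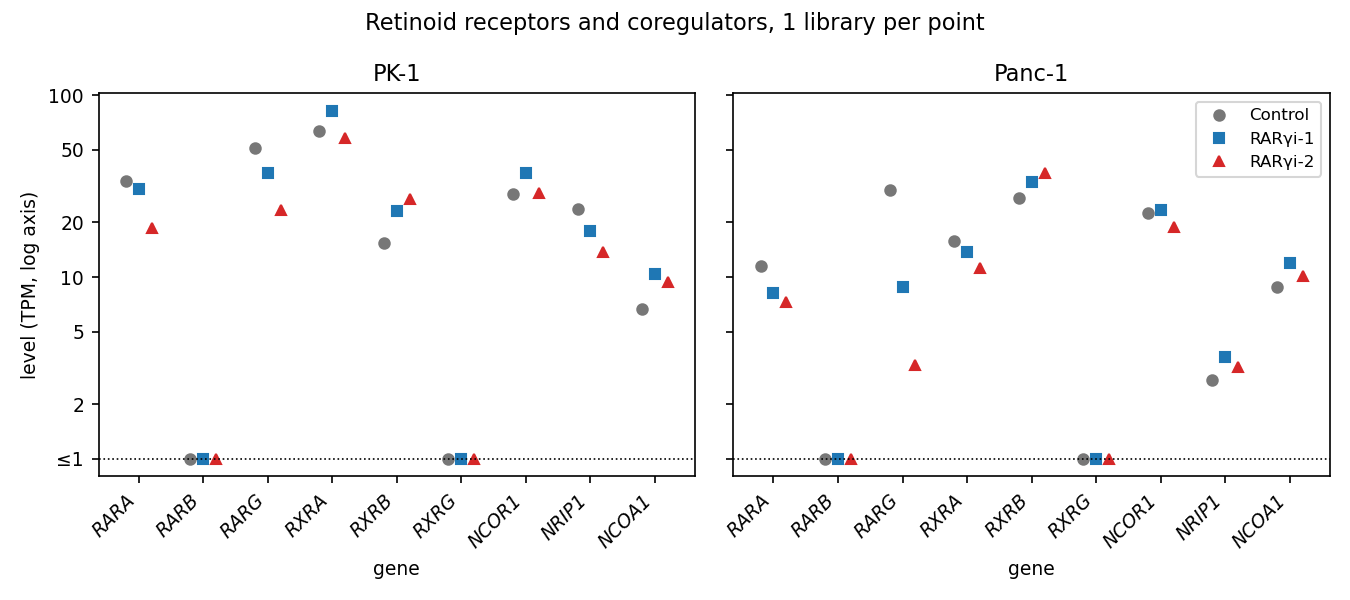
Level of each gene in each library (vertical axis, TPM on a log scale, with the floor of 1 TPM dotted; horizontal axis, gene), with 1 library per point for PK-1, drawn on the left, and for Panc-1. RARG is below its control in each treated library and reaches 3.27 TPM in Panc-1 with RARγi-2, RXRB is above its control in each, and RARB and RXRG lie on the floor throughout.

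RXRA (chr9:134326455-134440585, Entrez 6256) encodes RXRα, the partner of many nuclear receptors besides the RARs. It had the highest level of the 9 genes in all 3 PK-1 libraries, at 63.4 TPM in the control, 82.0 TPM under RARγi-1 and 57.9 TPM under RARγi-2. In Panc-1 its level was 15.8, 13.7 and 11.2 TPM. On the log2 scale the fold changes were 0.37 and -0.13 for PK-1 and -0.20 and -0.47 for Panc-1. Only the Panc-1 RARγi-2 value was outside the fold change spread, on the lower side.

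RXRB (chr6:33193588-33200853, Entrez 6257) encodes RXRβ, which is found in most tissues. Its level was 15.3 TPM in the PK-1 control, 23.0 TPM under RARγi-1 and 26.9 TPM under RARγi-2, and 27.1, 33.4 and 37.4 TPM in Panc-1. Every treated library was above the control of its line. PK-1 had log2 fold changes of 0.56 and 0.78 and Panc-1 of 0.29 and 0.45, of which the Panc-1 RARγi-1 value was inside the fold change spread and none passed 2-fold. RXRB shares 244 bases with SLC39A7, a zinc transporter gene on the opposite strand, which was at 113, 223 and 327 TPM in the PK-1 libraries and at 159, 311 and 499.99 TPM in Panc-1. SLC39A7 had log2 fold changes of 0.97 and 1.52 for PK-1 and of 0.96 and 1.65 for Panc-1, and its part in the RXRB values was not tested.

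Summed over the 3 RAR genes, with RARB counted as 1 TPM, the level was 85.7 TPM in the PK-1 control, 69.0 TPM under RARγi-1 and 43.2 TPM under RARγi-2. In Panc-1 the sum was 42.6, 18.0 and 11.6 TPM, which is 2.36 times below the control with RARγi-1 and 3.69 times below it with RARγi-2, against 1.24 and 1.98 times in PK-1. The RXR sum was 79.8, 106 and 85.8 TPM in PK-1 and 43.9, 48.0 and 49.6 TPM in Panc-1, so that each treated library was 1.08 to 1.33 times above its control. In both lines, the RAR sum was thus lower and the RXR sum higher in the treated libraries than in the control. All of the RXR differences, and the RAR difference of PK-1 with RARγi-1, were smaller than the fold change spread. RXRB was above its control in each treated library, but RXRA only in PK-1 with RARγi-1. RXR transcripts per RAR transcript were 0.930, 1.54 and 1.99 for the PK-1 libraries and 1.03, 2.66 and 4.29 for those of Panc-1.

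The makeup of the RAR sum differed between the lines. In PK-1, RARG made up 59.6% of it in the control, 54.4% with RARγi-1 and 54.4% with RARγi-2, and RARA 39.2%, 44.2% and 43.3%. In Panc-1, RARG made up 70.6%, 49.0% and 28.3%, and RARA 27.0%, 45.5% and 63.0%. RARG was above RARA in both controls, and RARA above RARG in the Panc-1 RARγi-2 library, by more than the fold change spread. In the other 3 libraries RARG was the higher by less than the spread. The spread compares each entry with itself between libraries, so it is only a scale for such gaps and does not measure their error. RXRA made up 79.5%, 77.3% and 67.4% of the RXR sum in PK-1, where it was the leading RXR gene, and 36.1%, 28.5% and 22.6% in Panc-1, where RXRB led.

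**Figure D2:**
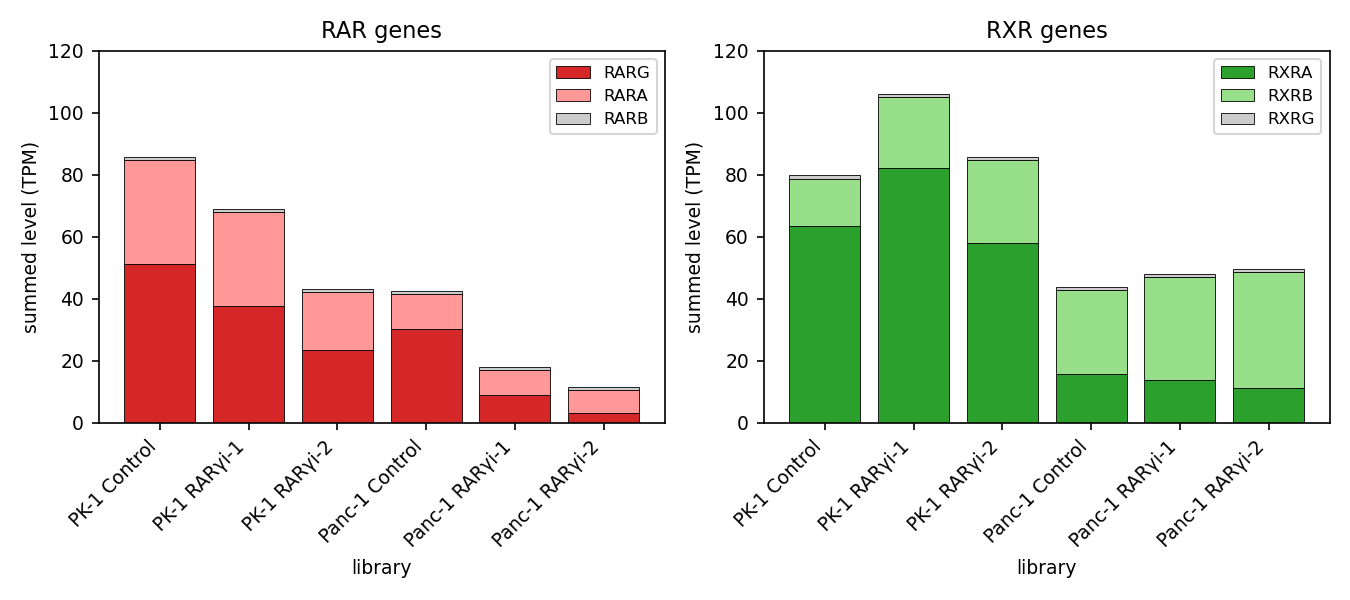
Summed level of the RAR genes (left) and of the RXR genes (right) in each of the 6 libraries (vertical axis, TPM; horizontal axis, library), with each bar divided by gene and genes at the floor drawn as 1 TPM. The RAR bars of the treated libraries are lower than the control of their line, down to 11.6 TPM against 42.6 TPM in Panc-1, while the RXR bars stay between 43.9 and 106 TPM.

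Among the coregulators, NCOR1 (chr17:16029157-16215534, Entrez 9611) encodes the corepressor that unliganded RARs recruit. Its level was 28.8, 37.4 and 29.1 TPM in the PK-1 libraries and 22.6, 23.4 and 18.8 TPM in Panc-1. Its fold changes on the log2 scale, 0.37 and 0.01 for PK-1 and 0.05 and -0.25 for Panc-1, were all inside the fold change spread, but the 0.05 of Panc-1 RARγi-1 became -0.03 when the libraries were rescaled by median ratios. NCOR1 overlaps 15859 bases of TTC19, a gene for a respiratory chain assembly factor on the opposite strand. TTC19 was at 33.6, 47.3 and 32.6 TPM in the PK-1 libraries and at 38.5, 80.5 and 64.5 TPM in Panc-1. PIGL, also on the opposite strand, shares 995 bases with NCOR1. It was at 19.3, 27.8 and 18.2 TPM in PK-1 and at 13.7, 18.0 and 23.3 TPM in Panc-1. The part of TTC19 and PIGL in the NCOR1 values was not tested. The pseudogenes NCOR1P1, NCOR1P2 and NCOR1P3, which share sequence with NCOR1, were at the floor in all 6 libraries.

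NRIP1 (chr21:14961235-15065936, Entrez 8204) encodes RIP140, a corepressor of ligand-bound receptors that is itself known to respond to retinoic acid. Its level was 23.8, 17.9 and 13.8 TPM in the PK-1 libraries and 2.72, 3.63 and 3.21 TPM in Panc-1. The treated libraries lay below the control in PK-1 and above it in Panc-1, at -0.39 and -0.75 on the log2 scale in the former and 0.32 and 0.18 in the latter. Only the PK-1 RARγi-2 value was outside the fold change spread. Of the entries tested in both lines, 13% likewise had opposite directions with both inhibitors. In Panc-1, NRIP1 was under 5 TPM in every library and so was not among the tested entries.

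NCOA1 (chr2:24491254-24770702, Entrez 8648) encodes SRC-1, a p160 coactivator that ligand-bound receptors recruit. Its level was 6.71, 10.5 and 9.34 TPM in the PK-1 libraries and 8.80, 11.9 and 10.1 TPM in Panc-1, with every treated library above its control. These levels gave log2 fold changes of 0.57 and 0.42 for PK-1 and of 0.40 and 0.18 for Panc-1, none past 2-fold and the last inside the fold change spread.

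The p160 coactivators NCOA1, NCOA2 and NCOA3 together were at 49.6, 71.2 and 80.0 TPM in the PK-1 libraries and at 23.2, 33.9 and 34.1 TPM in Panc-1. Their sum was above the control in each treated library, but NCOA2 was above its own control only in Panc-1 with RARγi-1. NCOA2 was at 8.58, 8.33 and 6.30 TPM in PK-1 and at 3.92, 4.80 and 3.85 TPM in Panc-1. NCOA3, the most abundant of these coactivators, was at 34.3, 52.4 and 64.4 TPM in PK-1 and at 10.4, 17.1 and 20.1 TPM in Panc-1.

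RARG aside, no gene of the 9 passed 2-fold, and the counts were read against all tested entries. In PK-1, 7 of the 9 were tested. None passed 2-fold with RARγi-1, where 10.7% of the 11268 tested entries were higher and 5.67% lower past 2-fold, or 7.95% and 7.25% after rescaling by median ratios. With RARγi-2, RARG alone was lower past 2-fold, against 14.6% of tested entries, and none was higher, against 13.9%. In Panc-1, 6 of the 9 were tested. RARG alone was lower past 2-fold with RARγi-1, against 7.11% of the 11056 tested entries, and again with RARγi-2, against 13%. No gene was higher past 2-fold, against 8.58% and 9.88% of tested entries. With 6 or 7 genes tested, these counts are within 1 gene of what the shares over all tested entries would give.

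Outside the fold change spread, RXRB and NCOA1 were higher and RARG lower in PK-1 with RARγi-1, against 32.8% and 18.8% of tested entries. With RARγi-2, the same 2 genes were higher and RARA, RARG and NRIP1 lower, against 30.9% and 32%. In Panc-1, NCOA1 was higher and RARA and RARG lower with RARγi-1, against 34.3% and 25.1%. With RARγi-2, RXRB was higher and RARA, RARG and RXRA lower, against 31% and 34.2%. Over the tested genes of the 9, the median log2 fold change was 0.37 and -0.13 for PK-1 and -0.07 and -0.36 for Panc-1, beside medians over all tested entries of 0.15, -0.01, 0.09 and -0.03. Both comparisons within a line share its control library, so they are not independent of each other.

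RARG lay deeper in the lower tail of the tested entries in Panc-1 than in PK-1. In PK-1, 2013 entries had a lower fold change than RARG with RARγi-1 and 1470 with RARγi-2, of 11268. In Panc-1, 259 did with RARγi-1 and 72 with RARγi-2, of 11056. The fold change of RARG in Panc-1 minus that in PK-1 was -1.22 with RARγi-1, lower than for all but 395 of the 9912 entries tested in both lines other than itself, and -1.78 with RARγi-2, where 203 entries were lower. This difference between the lines rests on 1 library per condition and has no replicate check.

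**Figure D3:**
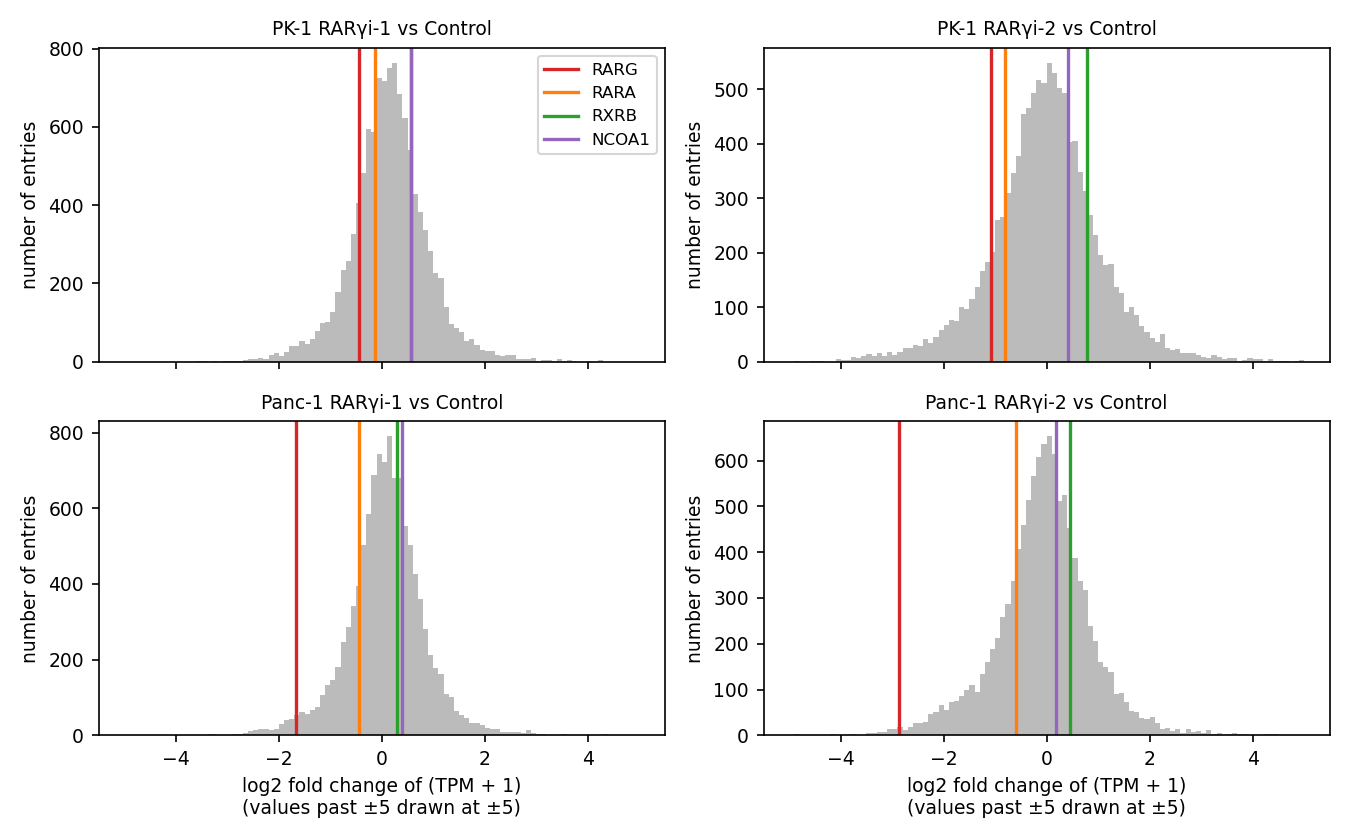
Number of tested entries (vertical axis) by log2 fold change of (TPM + 1) (horizontal axis, values past ±5 drawn at ±5) in each of the 4 comparisons, with coloured lines at RARG, RARA, RXRB and NCOA1. The RARG line lies within the body of the distribution in PK-1 with RARγi-1 (-0.44) and in the lower tail in Panc-1 with RARγi-2 (-2.86), and in the first panel the RXRB and NCOA1 lines nearly coincide (0.56 and 0.57).

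In a fit over both lines with the line as a block, chosen after the values were seen, the 6 genes tested in both lines were set against all 9912 such entries with limma and Benjamini-Hochberg adjustment. The fit takes the difference between the lines in response as its error, with 2 residual degrees of freedom, and both inhibitors share the controls. limma moderates the error of each entry towards that of entries of like level. The SEs and p-values thus rest on all entries and not on these degrees of freedom alone. With RARγi-1, none of the 6 genes had an adjusted p below 0.05, against 11% of entries, and RARG had a mean log2 fold change of -1.05 ± 0.43 (SE) with an adjusted p of 0.164 by limma. With RARγi-2, RARG and RXRB did, which is 2 of 6 genes and near the 31.5% of all entries that did, and RXRB was close to the threshold. Their mean log2 fold changes were -1.98 ± 0.43 for RARG (adjusted p of 0.0281 by limma) and 0.61 ± 0.17 for RXRB (adjusted p of 0.0497 by limma). RARG was lower and RXRB higher than the control in both lines. RARA missed the threshold at -0.70 ± 0.20 (adjusted p of 0.0512 by limma).

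Rescaling the libraries of a line by median ratios removed a shift of 0.14 (log2) from PK-1 RARγi-1, of 0.08 from Panc-1 RARγi-1 and of -0.01 and -0.02 from the RARγi-2 comparisons. Relative to that shift, the PK-1 RARγi-1 log2 fold changes were -0.57 for RARG, -0.27 for RARA, -0.53 for NRIP1, 0.23 for RXRA, 0.42 for RXRB, 0.23 for NCOR1 and 0.45 for NCOA1. RARG was at -1.08, -1.73 and -2.85 in the other comparisons. None of these changed side of 2-fold, and NRIP1 came to lie outside the fold change spread of PK-1.

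**Figure D4:**
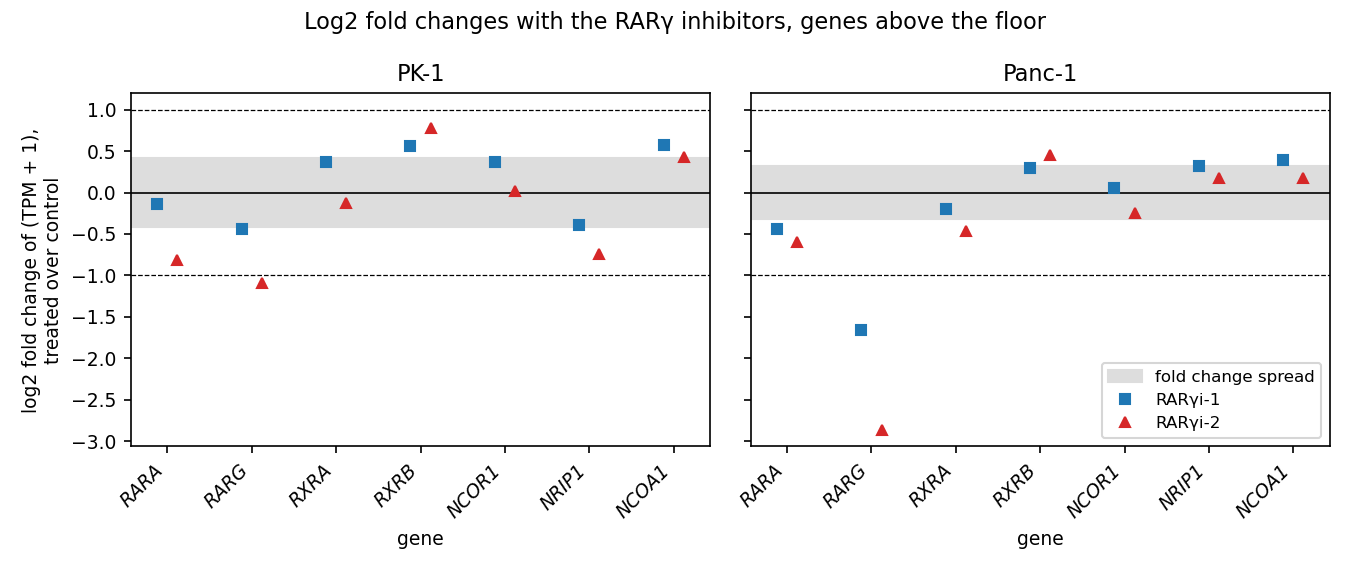
Log2 fold change of (TPM + 1), treated over control (vertical axis), for the 7 genes above the floor (horizontal axis), with PK-1 on the left, Panc-1 on the right and 1 library per condition. Grey bands mark the fold change spread (0.41 and 0.32) and dashed lines 2-fold, and RARG alone lies past a dashed line, with RARγi-2 in PK-1 and with both inhibitors in Panc-1.

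The lines differed in these genes before treatment. The PK-1 control had 2.92 times the RARA level of the Panc-1 control, 1.70 times the RARG level and 8.75 times the NRIP1 level, and its RXRA level was 63.4 TPM against 15.8 TPM. The Panc-1 control had 1.77 times the RXRB level and 1.31 times the NCOA1 level of PK-1. NCOR1 was the nearest to equal, at 1.27 times the Panc-1 level in PK-1. There was 1 control library per line, so these ratios have no replicate check.

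In the order of levels, the PK-1 control ran from RXRA through RARG, RARA, NCOR1, NRIP1 and RXRB to NCOA1, and the gaps between RXRA and RARG, RARA and NCOR1, and NCOR1 and NRIP1 were smaller than the fold change spread. The Panc-1 control ran from RARG through RXRB, NCOR1, RXRA, RARA and NCOA1 to NRIP1. There the gaps from RARG to RXRB and from RXRB to NCOR1 were smaller than the spread. Here too the spread is only a scale and does not measure the error of a gap between genes. RARG, first in the Panc-1 control, was 5th of the 7 genes in the RARγi-1 library, next to RARA (8.83 and 8.20 TPM), and 6th in the RARγi-2 library, next to NRIP1 (3.27 and 3.21 TPM). RXRB was first in both treated Panc-1 libraries. In PK-1, RARG was second with RARγi-1, level with NCOR1 (37.5 and 37.4 TPM), and 4th with RARγi-2, while RXRA stayed first.

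RARG was also set among the 48 nuclear receptor genes, with 21 tested for PK-1 and 17 for Panc-1. It had the lowest fold change of the 17 in Panc-1 with each inhibitor and the second lowest of the 21 in PK-1, after NR2F2, with each inhibitor. NR2F2 encodes COUP-TFII, an orphan receptor that can occupy retinoic acid response elements. Its level was 74.1, 25.0 and 8.37 TPM in the PK-1 libraries and 17.9, 8.21 and 7.88 TPM in Panc-1, with log2 fold changes of -1.53 and -3.00 for PK-1 and of -1.04 and -1.09 for Panc-1. By level, RARG was 5th, 7th and 9th of the 25 receptor genes above the floor in the PK-1 libraries, and 5th of 24, 12th of 22 and 18th of 21 in Panc-1. Of the 42 receptor genes outside the RAR and RXR families, 17 were tested for PK-1 and 13 for Panc-1. Among them, 2 and 3 were higher and 1 and 2 lower past 2-fold in PK-1, and none was higher and 2 were lower with each inhibitor in Panc-1. Of all tested entries, 10.7% and 13.9% were higher and 5.67% and 14.6% lower past 2-fold in PK-1. In Panc-1, 8.58% and 9.88% were higher and 7.11% and 13% lower. One of the genes counted as higher in PK-1, PPARA, passed the filter there only through its highest library. NR2F1, counted as lower in Panc-1 with each inhibitor, likewise passed it there only through the control, at 9.39, 4.19 and 3.25 TPM.

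**Figure D5:**
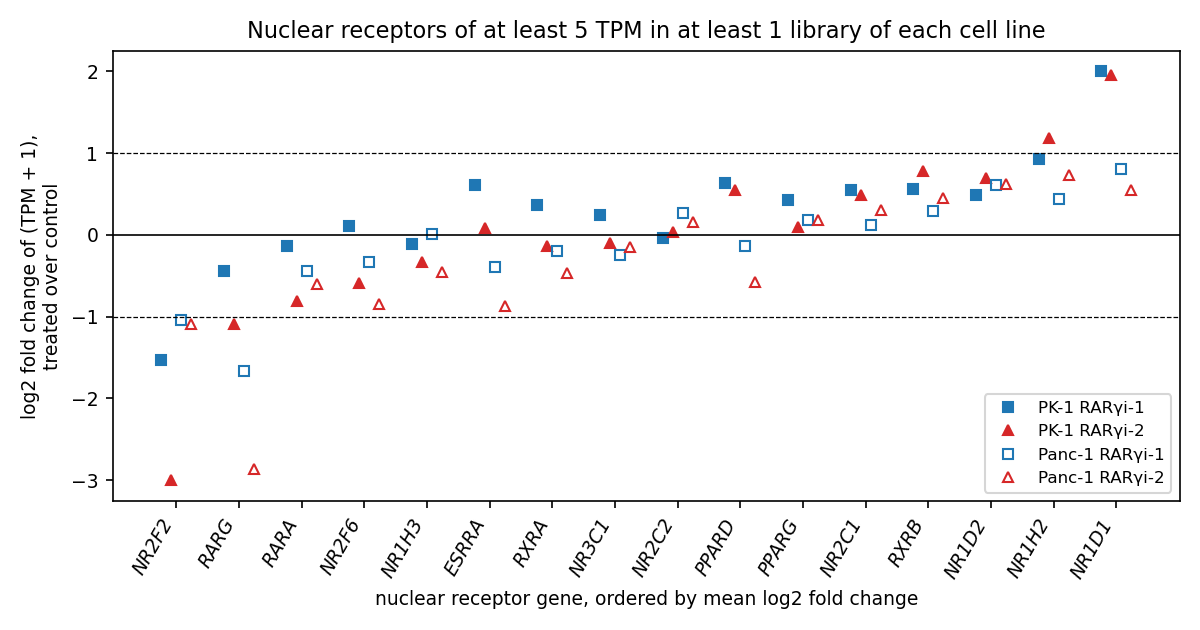
Log2 fold change of (TPM + 1), treated over control (vertical axis), of the 16 nuclear receptor genes tested in both lines (horizontal axis, ordered by mean), with filled symbols for PK-1, open symbols for Panc-1 and dashed lines at 2-fold. NR2F2 and RARG are at the low end, with RARG down to -2.86 in Panc-1, RARA comes next, and RXRB lies above 0 in each comparison.

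The 13 receptors that pair with RXR besides the RARs gave 9 tested genes in PK-1 and 4 in Panc-1. In PK-1, PPARA was higher past 2-fold with RARγi-1, and PPARA and NR1H2 were higher and VDR lower with RARγi-2. None passed 2-fold in Panc-1. Of all tested entries, 10.7% and 13.9% were higher and 5.67% and 14.6% lower past 2-fold in PK-1. The shares in Panc-1 were 8.58% and 9.88% higher and 7.11% and 13% lower. With 9 and 4 tested genes, the counts cannot be set apart from these shares. PPARA, the fatty acid sensor PPARα, was at 1.69 TPM in the PK-1 control and 5.15 TPM with RARγi-2, and entered the tested set there only through that library, the one in which it was highest. NR1H2, the oxysterol receptor LXRβ, was at 46.1, 88.7 and 106 TPM in PK-1 and at 54.6, 74.2 and 91.5 TPM in Panc-1.

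Of 4 further subunits of the NCoR complex, all tested in both lines, none passed 2-fold. TBL1X and TBL1XR1, related subunits that exchange corepressors for coactivators, differed in sign: TBL1X was at 0.67 and 0.23 for PK-1 and 0.64 and 0.63 for Panc-1 on the log2 scale, and TBL1XR1 at -0.03, -0.49, -0.15 and -0.80 in the same order. Of 9 further coactivators, 9 were tested in PK-1 and 8 in Panc-1, none was higher past 2-fold, and PRMT1 in PK-1 and KAT2B in Panc-1 were lower, each with RARγi-2. KAT2B, the acetyltransferase PCAF, had log2 fold changes of -0.13, -0.47, -0.89 and -1.84, and NCOA3 of 0.60, 0.89, 0.67 and 0.89. KAT2B was at 5.52, 4.96 and 3.72 TPM in PK-1 and at 9.13, 4.45 and 1.82 TPM in Panc-1. In each line it entered the tested set only through the control, the library in which it was highest. The 4 ligand-dependent corepressors and NRIP1 partners were all tested and none passed 2-fold, with CTBP2 at 0.24, 0.03, 0.28 and 0.58 and TRIM24 at -0.15, -0.22, -0.41 and 0.01. Of all tested entries, 10.7% and 13.9% were higher and 5.67% and 14.6% lower past 2-fold in PK-1. For Panc-1 it was 8.58% and 9.88% higher and 7.11% and 13% lower. Lists of 4 to 9 genes are too small to set these counts apart from those shares.

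Of 12 known retinoic acid response genes, 6 were tested in each line. DHRS3, a retinaldehyde reductase, and TGM2, transglutaminase 2, were lower past 2-fold in PK-1 with RARγi-1, and TGM2 and CRABP2, which carries retinoic acid to the RARs, with RARγi-2, where STRA6, the retinol importer, was higher. STRA6 was at 4.27, 4.50 and 26.3 TPM in the PK-1 libraries and reached the 5 TPM of tested entries only with RARγi-2. All of DHRS3, TGM2 and CRABP2 were lower past 2-fold in Panc-1 with each inhibitor, against 7.11% and 13% of tested entries. In PK-1, 5.67% and 14.6% of tested entries were lower past 2-fold, and 10.7% and 13.9% were higher. The median of the tested list was -0.06 and -0.74 for PK-1 and -0.92 and -1.44 for Panc-1, beside the medians over all tested entries given above. CRABP2 was at 116, 105 and 42.0 TPM in the PK-1 libraries and at 231, 86.4 and 37.2 TPM in Panc-1.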

How the data were processed

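For each of 6 libraries the authors deposited log2 TPM values per entry, with everything under 1 TPM raised to 1 TPM, a floor read from the values. Per the submitters' processing notes the build was hg38. The aligner, counting method, strand use and annotation are not given in the sources used here. The mRNA library kit keeps strand. Values were raised from the log2 to the linear scale, and a pseudocount of 1 TPM was used for log2 fold changes in Python 3.11.15 with pandas 2.3.3 and NumPy 2.4.6. The fit over both lines used limma 3.58.1 in R 4.3.3 on log2 (TPM + 1), with terms for line and treatment. Tested entries reached 5 TPM in 1 or more libraries of the line. The scripts were tested on simulated data. Coordinates and promoters are from RefSeq (GRCh38.p14), and overlapping genes from GENCODE 29. The 9 genes, the further lists and the comparisons were chosen with earlier results of these data known. Named from each further list were genes past 2-fold in 1 direction in at least 3 of 4 comparisons, otherwise the 2 with the largest absolute mean log2 fold change. For likeness to RARG, the 3 entries with the highest Pearson's r were named, among entries that reached 10 TPM in any library. NR1D1, NR2F1, PRMT1, VDR, STRA6, SLC39A7, TTC19, PIGL and RARA-AS1 were named after their values were seen. Of the genes and sums planned, 2 genes of the further lists and the ratio of coactivator to corepressor levels are not reported here. Alternatives were another pseudocount or none, other fold thresholds, rescaling, the floor set to 0, other filters and summed repeated symbols.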

Additional observations from a re-analysis of the deposited data

Results flagged for a closer look

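NRIP1 stood below its control with both inhibitors in PK-1 (log2 fold changes of -0.39 and -0.75) and above it with both in Panc-1 (0.32 and 0.18). The mean in Panc-1 minus the mean in PK-1 was 0.82 on the log2 scale. This difference between the lines was not tested, since there is 1 library per condition and both inhibitors share a control. Of the 9912 entries tested in both lines, 13% had opposite directions in PK-1 and Panc-1 with both inhibitors. NRIP1 is not one of these entries, since it was under 5 TPM in every Panc-1 library. Only its PK-1 RARγi-2 value was outside the fold change spread.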

How the results depend on the processing

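No paired analysis was possible because each comparison within a cell line has 1 library on each side, and no replicate could be left out for the same reason. Over both lines, the limma fit with the line as a block, added after the data were seen, gave a mean of -1.05 with RARγi-1 and -1.98 with RARγi-2 for RARG, the means of the values of the lines. With a fold threshold of 1.5 in place of 2, 1 of the genes was higher and 3 were lower in PK-1 with RARγi-2, and 2 were lower in Panc-1 with RARγi-2. With a threshold of 3, 0 were lower in PK-1 with RARγi-2, while RARG stayed past it in both Panc-1 comparisons. The log2 fold change of RARG in Panc-1 with RARγi-2 was -3.20 without a pseudocount and -3.16 with 0.1 TPM, against -2.86. Of 144 recomputed fold changes of the 9 genes, those of RARB and RXRG at the floor included, these 2 moved by more than the spread of a single library (0.23 in Panc-1), and 1 changed sign, NCOR1 in Panc-1 with RARγi-1 after rescaling (-0.03 against 0.05). Under the other pseudocounts, rescaling, summed repeated symbols and the 5 TPM filter, the counts past 2-fold were as reported. With the floor set to 0 TPM, the RARG share of the RAR sum was 72.3% in the Panc-1 control, 51.9% with RARγi-1 and 31.0% with RARγi-2. The depth behind the TPM values is unknown, so low levels such as those of NRIP1 and RARG in treated Panc-1 have an unknown counting error, and values at the floor carry no information below 1 TPM.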

Other observations

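Over the 6 libraries, the entries whose log2 (TPM + 1) followed RARG most closely, among the 10628 entries that reached 10 TPM in any library, were COX7C (Pearson's r of 0.998), WNT7B (0.995) and NFS1 (0.992). These are descriptions over 6 libraries, of which 3 share each cell line and each inhibitor pair shares a control. COX7C, a subunit of cytochrome c oxidase, spanned 0.93 on the log2 scale, from 588 to 1118 TPM. NFS1, a cysteine desulfurase of iron-sulfur cluster assembly, ranged from 15.6 to 39.9 TPM. WNT7B, a Wnt ligand, spanned more, with 121, 106 and 54.4 TPM in the PK-1 control, RARγi-1 and RARγi-2 libraries and 86.3, 25.5 and 8.76 TPM in Panc-1.

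NR1D1, which encodes the circadian repressor REV-ERBα and was named after its values were seen, had the highest fold change of the tested nuclear receptors in PK-1 with each inhibitor and in Panc-1 with RARγi-1. In Panc-1 with RARγi-2 it was 15th from the lowest of 17. Its level was 19.6, 81.5 and 79.2 TPM in the PK-1 libraries and 5.90, 11.1 and 9.13 TPM in Panc-1. The treated level was 4.16 and 4.04 times that of the control for PK-1 and 1.88 and 1.55 times for Panc-1.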
